A study of Mus musculus with 6 samples.

Results

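The p53 apoptosis targets described here are 10 genes that the transcription factor p53, encoded by Trp53 in the mouse, is known to activate and whose products promote or accompany cell death. They are Bax, Bbc3, Pmaip1, Apaf1, Fas, Tnfrsf10b, Eda2r, Perp, Aen and Trp53inp1. They were chosen by name, and their probes were found by matching each probe's accession to RefSeq, which gave 20 probes for 10 of the 23787 genes named on the array. Of these probes, 15 were well above background on all 6 arrays, 3 on some of them and 2 on none. Only Eda2r had no probe above background on all 6 arrays.

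Total RNA of cultured mouse fallopian tube organoids, which are epithelial structures grown in a gel from the oviduct, was hybridised to 6 one-colour arrays, with 1 array for each of 6 groups. The control culture came from Trp53flox/flox mice, whose Trp53 alleles are intact but flanked by recombination sites, and it carried the empty vector pLKO.1. The second culture had lost Trp53, and is called Trp53 loss. Pik3ca/Trp53 had the activating PI3-kinase mutant Pik3caH1047R with Trp53 loss, and Apc/Trp53 had Apc580D, an altered form of the Wnt antagonist Apc, with Trp53 loss. Each of these 2 was measured before inoculation under the skin and again as organoids grown from the lesion, which the labels class as adenocarcinoma for Pik3ca/Trp53 and as cyst for Apc/Trp53. The labels state 1 serum-free medium for all cultures, with EGF, Noggin, R-spondin1, Jagged-1, the ROCK inhibitor Y27632 and the GSK3 inhibitor CHIR-99021. How Trp53 was removed, the vectors in the mutant cultures, the number and age of the animals and the strain of the recipients are not stated in the sources used. A further pair that the design mentions was not analysed here.

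In cells under stress, p53 binds DNA near its target genes and raises their transcription. BAX and the BH3-only proteins PUMA (gene Bbc3) and NOXA (gene Pmaip1) act at the mitochondrion, from which cytochrome c is then released and assembles with APAF1 into the apoptosome, the platform that activates caspase-9. A parallel route starts at the cell surface from receptors of the TNF receptor family such as FAS. Trp53 is the gene most often mutated in high-grade serous carcinoma, a cancer thought to arise largely in the fallopian tube epithelium.

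Every level below is a log2 signal relative to the 75th percentile of its array, so that 0 is the signal of a probe at that percentile. Levels of different probes are not compared, because probes differ in brightness for the same amount of RNA. On each array, 45.4% to 51.0% of the 56605 probes were well above background, and the median SD between copies of a probe printed at least 8 times was 0.039 to 0.081 log2 units. The scanner's own error was 10.0% of the signal for the median member probe and 21.6% at most, counted where the probe was well above background. Because each group had 1 array, differences between 2 arrays carry no test, and these errors cover the measurement only. All 6 arrays lay on 1 slide. Control and both tumour-derived cultures lay in row 2 and the other 3 in row 1. Slide row and group therefore cannot be told apart where Trp53 loss, Pik3ca/Trp53 or Apc/Trp53 is compared with control. The same holds where a tumour-derived culture is compared with its source, and in both limma fits below, which combine such comparisons.

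Trp53 itself was at 0.89 in control. Its signal was dim, meaning not well above background, in Trp53 loss (-6.59), Pik3ca/Trp53 (-5.02) and tumour-derived Apc/Trp53 (-6.68). It exceeded background but lay below control in Apc/Trp53 (-3.57) and tumour-derived Pik3ca/Trp53 (-1.62), which are also labelled as having lost Trp53. Where this probe lies relative to the removed exons is not stated in the labels or files. All 8 general epithelial markers (Epcam, Cdh1, keratins and claudins) were above background on all 6 arrays.

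RefSeq's promoter table (build GRCm38.p6) held the sequence upstream of 6 of the 10 genes, in 9 windows. The 250 bases before each start were searched on both strands for the p53 half-site, the 10-base unit of which a pair, up to 13 bases apart, makes a p53 response element. Its pattern reads the same on both strands, so a match counts once. Bax held 1 match, from 201 to 192 bases before its start, and Aen held 1, from 121 to 112 bases before 1 of its starts. Bbc3, Apaf1, Fas and Eda2r held none. Over all 32851 windows of the table, 7.13% held such a unit. A full element was found in 0.0639% of all windows, or 2.20% with 1 mismatch allowed in each unit, and in none of the 9 member windows. These matches describe the letters of these windows only. The sequences below show the upstream DNA of Bax and Aen, which hold a match, of Eda2r, whose signal was farthest below control after Trp53 loss, and of Fas, whose signal differed most between the tumour-derived cultures. Capitals mark the matched unit, and the stretches of Bax, Fas and Eda2r end before the first base that RefSeq assigns to the gene.
Bax, chr7:45466904-45467148, minus strand: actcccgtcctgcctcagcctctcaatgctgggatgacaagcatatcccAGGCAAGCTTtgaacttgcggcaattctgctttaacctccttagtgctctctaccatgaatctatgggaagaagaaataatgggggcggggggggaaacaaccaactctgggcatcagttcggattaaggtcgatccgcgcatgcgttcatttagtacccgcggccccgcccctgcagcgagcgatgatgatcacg
Aen, chr7:78895927-78895956, plus strand, inside the gene's span: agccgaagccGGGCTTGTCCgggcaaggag
Eda2r, chrX:97377235-97377459, minus strand: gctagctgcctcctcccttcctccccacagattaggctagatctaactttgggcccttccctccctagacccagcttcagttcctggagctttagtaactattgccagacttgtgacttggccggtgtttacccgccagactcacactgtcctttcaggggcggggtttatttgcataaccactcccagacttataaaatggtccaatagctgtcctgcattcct
Fas, chr19:34290409-34290646, plus strand: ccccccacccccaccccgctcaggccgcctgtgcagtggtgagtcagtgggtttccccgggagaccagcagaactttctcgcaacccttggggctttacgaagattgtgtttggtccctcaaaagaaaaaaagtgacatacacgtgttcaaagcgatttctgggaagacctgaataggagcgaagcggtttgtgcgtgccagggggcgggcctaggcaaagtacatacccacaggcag

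The members were read first on all 6 arrays, in the order of their roles. For each pair the culture before inoculation is given first and the tumour-derived one after it. BAX is the BCL2-family protein that opens the outer mitochondrial membrane. For probe A_55_P2137406 the Bax level was 4.15 in control, 2.46 in Trp53 loss, 3.29 and 3.13 in the Pik3ca/Trp53 pair and 2.98 and 2.87 in the Apc/Trp53 pair. For probe A_51_P254541 the levels were 2.39, 1.11, 1.65, 1.51, 1.54 and 1.42 in the same order. Both probes put control highest and Trp53 loss lowest, with the 4 double-mutant arrays between them. Averaged over both probes, those 4 arrays lay within 0.33 log2 units of each other.

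PUMA, the product of Bbc3, is a BH3-only protein that neutralises all anti-apoptotic BCL2 proteins. The single Bbc3 probe was at 0.89 in control, -0.19 in Trp53 loss, -0.10 and 2.13 in the Pik3ca/Trp53 pair and 0.44 and 0.47 in the Apc/Trp53 pair. Tumour-derived Pik3ca/Trp53 stood above all other arrays, control included. NOXA, the product of Pmaip1, is a BH3-only protein that binds MCL1. Its single probe was at 3.71 in control, 3.45 in Trp53 loss, 2.90 and 3.81 in the Pik3ca/Trp53 pair and 2.52 and 2.42 in the Apc/Trp53 pair. Tumour-derived Pik3ca/Trp53 and control were the highest arrays here too, only 0.09 log2 units (1.07-fold) apart, and both Apc/Trp53 arrays were the lowest.

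Apaf1 encodes the scaffold of the apoptosome. Probe A_51_P417701 was at -1.42 in control, -1.68 in Trp53 loss, -1.80 and -2.10 in the Pik3ca/Trp53 pair and -1.89 and -2.32 in the Apc/Trp53 pair. Probe A_52_P621991 was at -2.88 in control, -3.74 in Pik3ca/Trp53 and -3.97 in tumour-derived Apc/Trp53, and was not well above background on the other 3 arrays. Both probes put control highest and disagreed on the size of the difference and on which array was lowest.

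Of the receptors, FAS binds FAS ligand and recruits FADD and caspase-8. Fas probe A_55_P2091676 was at -1.71 in control, -2.76 in Trp53 loss, -1.84 and 0.67 in the Pik3ca/Trp53 pair and -3.00 and -3.91 in the Apc/Trp53 pair. These levels spanned 4.58 log2 units, with tumour-derived Pik3ca/Trp53 highest and tumour-derived Apc/Trp53 lowest. The other Fas probe, A_52_P73385, which is assigned to another RefSeq transcript, was not well above background on any array. Fas ligand (Fasl) was not well above background on any array either.

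Tnfrsf10b encodes the mouse death receptor for TRAIL. Probe A_55_P2027836 was at 2.30 in control, 1.58 in Trp53 loss, 1.00 and 1.26 in the Pik3ca/Trp53 pair and 1.75 and 1.30 in the Apc/Trp53 pair. Probe A_52_P10134 was at -2.10, -3.03, -3.16, -3.48, -2.75 and -3.28 in the same order. Both probes put control highest and Apc/Trp53 next. Eda2r encodes XEDAR, the receptor of the A2 form of ectodysplasin. Probe A_52_P354844 was at -0.32 in control and -4.65 in Apc/Trp53 and was not well above background on the other 4 arrays, probe A_52_P207163 was at -3.23 in control and above background nowhere else, and probe A_66_P122860 was above background on no array. Control was the only array with more than 1 Eda2r probe above background.

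The other members act in or beside these routes. PERP is a membrane protein of desmosomes and a death effector. The single Perp probe was at 5.01 in control, 4.48 in Trp53 loss, 4.04 and 4.16 in the Pik3ca/Trp53 pair and 4.51 and 4.16 in the Apc/Trp53 pair. This span of 0.97 log2 units was the smallest among the members, and control was again the highest array.

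Aen encodes a nuclease that takes part in DNA fragmentation. Averaged over 4 probes, its level was 3.26 in control, 1.79 in Trp53 loss, 1.07 and 0.31 in the Pik3ca/Trp53 pair and 1.74 and 0.89 in the Apc/Trp53 pair. All 4 probes put control highest and tumour-derived Pik3ca/Trp53 lowest. Trp53inp1 encodes a stress protein that promotes the phosphorylation of p53 linked to death. Averaged over 2 probes, its level was 0.60 in control, -1.36 in Trp53 loss, -1.32 and -1.29 in the Pik3ca/Trp53 pair and -1.75 and -1.63 in the Apc/Trp53 pair. The 5 cultures labelled as having lost Trp53 lay within 0.46 log2 units of each other and below control.

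**Figure D1:**
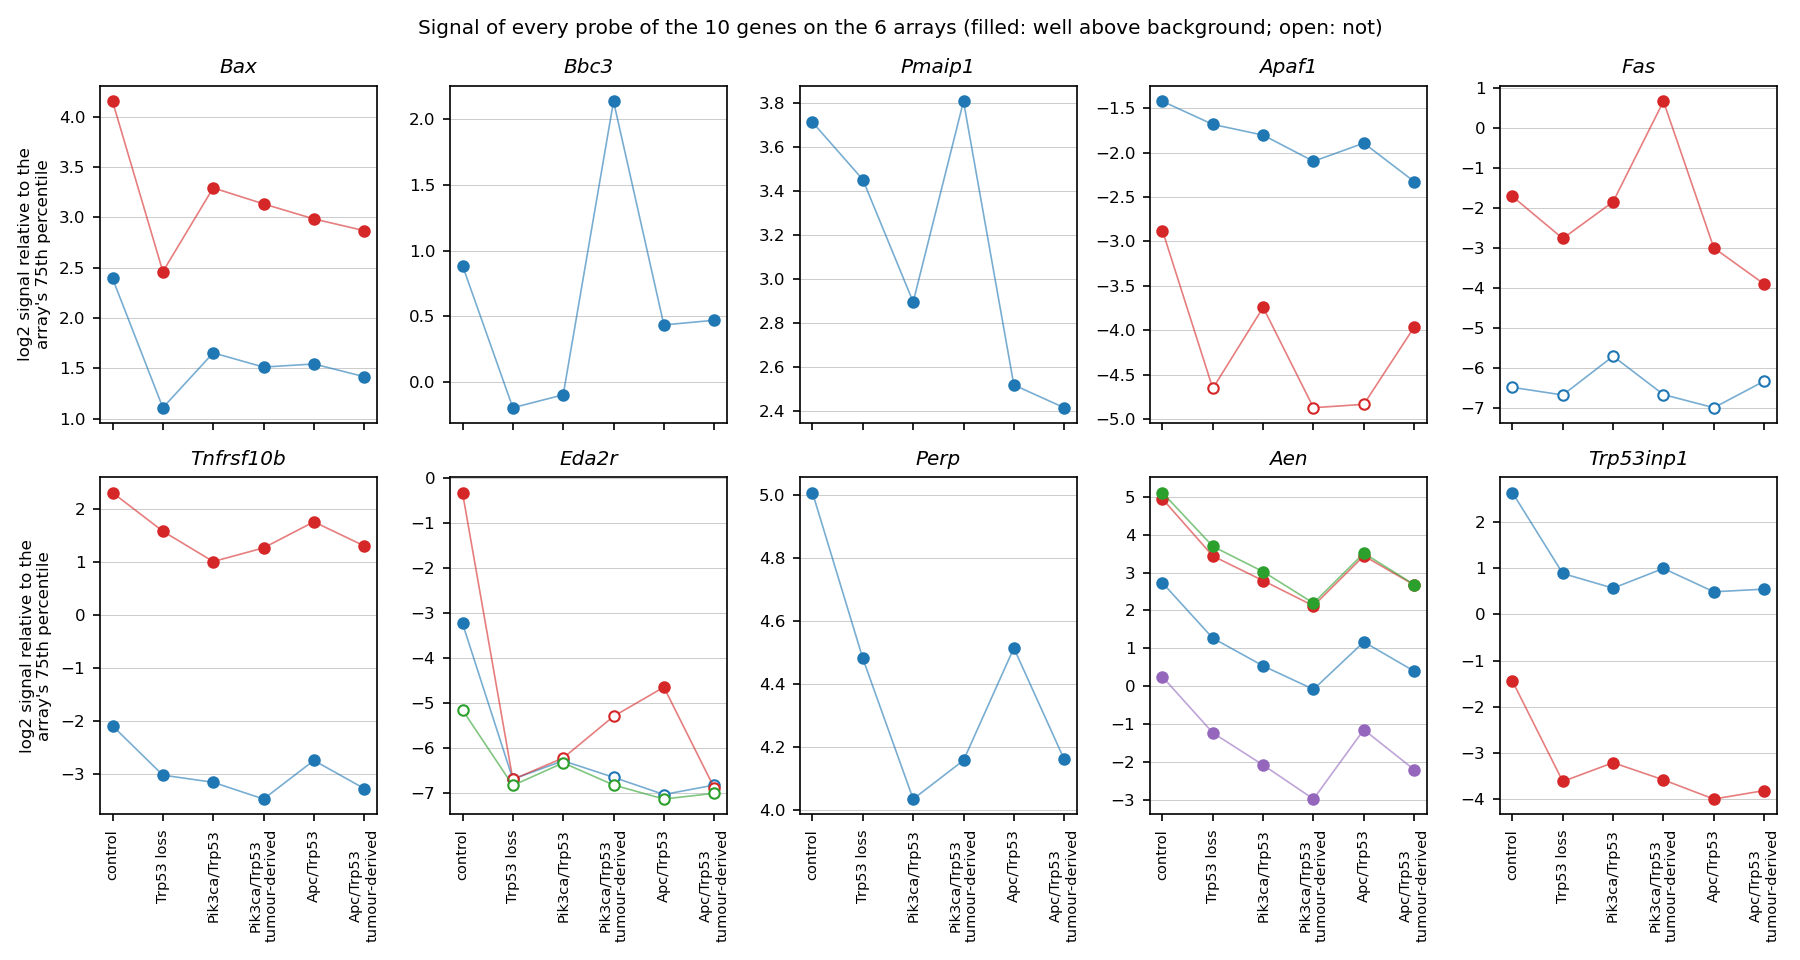
Log2 signal relative to the array's 75th percentile (vertical axis) of each of the 20 member probes on the 6 arrays (horizontal axis), 1 line per probe, each panel on its own scale. Filled points were well above background and open points were not. Control was the highest array for 7 of the 10 genes, and tumour-derived Pik3ca/Trp53 for Bbc3, Pmaip1 and Fas.

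Setting Trp53 loss against control asks how these genes differ in a culture labelled as having lost the gene of p53. All 10 members were lower in Trp53 loss, 7 of them by at least 2-fold and 0 higher by 2-fold, with a median log2 difference of -1.07. Of all 14361 genes measured in this comparison, 7.38% were lower and 6.02% higher by at least 2-fold, the median was 0.05, and 45.2% lay below 0. The smallest member difference was -0.26 for Pmaip1, which has 1 probe. Over all genes, the differences given by probes of a single gene had a median SD of 0.13 log2 units, a spread between probes and not between cultures. Eda2r was at least 19.0-fold lower for probe A_52_P354844 and at least 2.53-fold lower for probe A_52_P207163, where the dim signal was set to the lowest level measured above background on its array.

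Of the members above background on both arrays, Trp53inp1 was 3.90-fold lower, with 3.36-fold and 4.51-fold for its 2 probes. Bax was 2.80-fold lower (2.43-fold and 3.23-fold by probe) and Aen 2.76-fold lower (2.67-fold to 2.84-fold over 4 probes). Bbc3 was 2.11-fold lower and Fas 2.08-fold lower. These 5 genes cover the mitochondrial, receptor and nuclease branches, the receptor branch through Fas alone, on 1 probe. The Fas log2 difference fell short of 2-fold with scaling by the median (-0.87), with normexp (-0.54) and with dim probes kept (-0.62). Tnfrsf10b was 1.78-fold lower, Perp 1.44-fold lower and Pmaip1 1.20-fold lower. Apaf1 stood at the margin. Its mean over probes was 2.03-fold lower, made of 1.20-fold for the probe above background on both arrays and at least 3.24-fold for the probe that was dim in Trp53 loss. Scaled by the median of each array, or corrected for background by normexp, 4 of 10 members were at least 2-fold lower (5.87% and 2.59% of all genes), namely Bax, Eda2r, Aen and Trp53inp1, and all 10 were below 0.

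**Figure D2:**
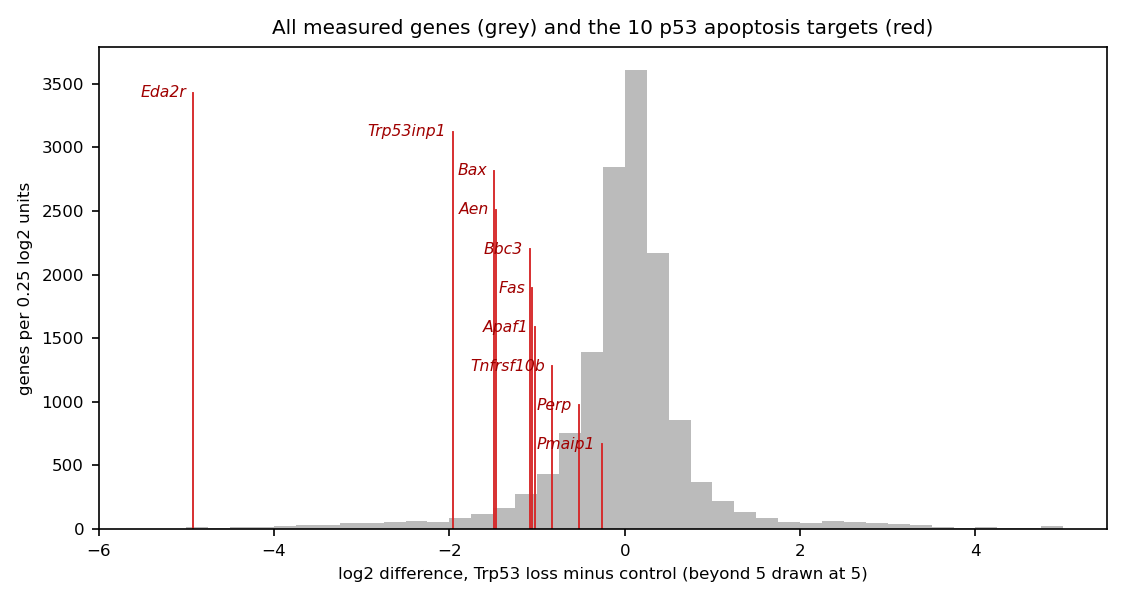
Number of genes (vertical axis, per 0.25 log2 units) by their log2 difference between the Trp53 loss array and the control array (horizontal axis), for 14361 genes in grey. Red lines place the 10 members, all left of 0, from Pmaip1 at -0.26 to Eda2r at -4.92 (as measured, with a dim signal in Trp53 loss). The heights of the red lines carry no value.

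Other genes of the pathway were set beside the members. Of 25 measured p53 targets of cell cycle arrest, feedback and repair, 13 were at least 2-fold lower and 0 higher, with a median of -1.16. Among them were Cdkn1a, the gene of the CDK inhibitor p21 (at least 25.6-fold lower), Psrc1 (16.8-fold), Phlda3, an inhibitor of AKT (14.8-fold), and Zmat3 (8.18-fold). Of 16 other p53 targets linked to cell death, 2 were at least 2-fold lower, Bcl2l11 (at least 2.79-fold) and Pidd1 (2.68-fold), and Cyfip2 was 4.06-fold higher, with a median of -0.12. Mdm2, which encodes the ligase that degrades p53, was 2.87-fold lower and Cdkn2a, the gene of the tumour suppressors p16 and p19ARF, was 5.42-fold higher.

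The machinery on which the members act lay nearer to the median of all genes. Of 15 measured genes of the apoptosome, the caspases and their inhibitors, 0 were 2-fold apart in either direction, with a median of 0.11. Of 9 measured pro-apoptotic BCL2-family genes other than the members, Bcl2l11 was 2-fold lower and the median was -0.18. Of 4 measured anti-apoptotic ones, 0 were 2-fold apart (median -0.38). Of 16 measured genes of the death receptor pathway other than the members, 1 was at least 2-fold lower, Tnfrsf25 (3.98-fold), and 1 higher (median -0.01). Of 9 measured desmosome and stratified epithelium genes, the partners of PERP, Pkp1 was 2.78-fold lower and the median was -0.11.

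Markers of multiciliated cells, whose motile cilia move fluid through the oviduct, also differed between these 2 arrays. All 10 markers were above background in control and 7 in Trp53 loss, and their summed signal was 10.8 and 4.0 times the 75th percentile signal. Of these markers 9 were at least 2-fold lower and 0 higher, with a median of -2.39, or -1.61 with dim signals at the limit. In the other 4 cultures 4 to 7 were above background, with sums of 2.45 to 4.81. Foxj1, which drives the ciliated fate, was 3.02-fold lower in Trp53 loss. Of 6 markers of the secretory epithelium of the oviduct, 3 were at least 2-fold lower in Trp53 loss and 1 higher (median -0.84). Their summed signal was 82.4 in control and 52.0 in Trp53 loss. In total RNA, fewer cells of a type and less RNA per cell cannot be told apart. The part of multiciliated or secretory cells in the differences of the members was not tested. No fibroblast marker was above background on either array.

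The 4 double-mutant cultures were each also set against control. They share the control array, so a deviation of that array enters all of the differences, which are given side by side only. In the Pik3ca/Trp53 pair, 4 of 10 members were at least 2-fold lower before inoculation (10.6% of all genes) and 5 in the tumour-derived culture (12.9%). In the Apc/Trp53 pair 7 were lower before inoculation (9.58% of all genes) and 7 in the tumour-derived culture (12.8%). The count before inoculation in the Apc/Trp53 pair was 4 with scaling by the median (7.35% of all genes) and 4 with normexp (4.31%). For tumour-derived Pik3ca/Trp53 the count was 3 with normexp (5.76%). Over probes well above background on both arrays it was 3 of 9 measured members (9.64%). Among the lower members of Pik3ca/Trp53 before inoculation, Tnfrsf10b fell short of 2-fold with scaling by the median (-0.98) and with normexp (-0.84). At least 2-fold higher were 2 members in tumour-derived Pik3ca/Trp53 (15.3% of all genes) and 0 in the others (11.5% in Pik3ca/Trp53, 8.17% in Apc/Trp53, and 14.9% after growth of the latter under the skin). The medians of the members were -0.98, -1.08, -1.20 and -1.21 in that order, beside medians of all genes of 0.08, 0.02, 0.07 and 0.03.

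Eda2r, Aen and Trp53inp1 were at least 2-fold below control in all 5 cultures. Aen was 2.76-fold lower in Trp53 loss, 4.56-fold and 7.69-fold in the Pik3ca/Trp53 pair and 2.85-fold and 5.16-fold in the Apc/Trp53 pair. Trp53inp1 was 3.90-fold, 3.78-fold, 3.71-fold, 5.10-fold and 4.69-fold lower in the same order. The Aen difference thus ranged more widely between cultures than that of Trp53inp1. Eda2r probe A_52_P354844 was 20.1-fold lower in Apc/Trp53, where it was above background on both arrays. Its level there, -4.65, lay near the background limit of -4.88, with a scanner error of 21.6%. The same probe was at least 19.0-fold lower in Trp53 loss, at least 14.4-fold and 18.6-fold in the Pik3ca/Trp53 pair and at least 20.7-fold in tumour-derived Apc/Trp53, bounds that reflect each array's background limit and give no ranking. Probe A_52_P207163 was at -3.23 in control and dim in all 5 cultures. With the background limit at -4.17 in Pik3ca/Trp53, its bound there falls short of 2-fold.

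Perp was below control in all 5 cultures without reaching 2-fold (1.41-fold to 1.96-fold). In Pik3ca/Trp53 the Perp difference passed 2-fold with quantile normalization, at -1.16 on the log2 scale. Perp and Bbc3 both just passed it there with the 75th percentile taken after averaging copies of a probe. Bax was 2.80-fold lower in Trp53 loss, 1.74-fold and 1.93-fold in the Pik3ca/Trp53 pair and 2.01-fold and 2.19-fold in the Apc/Trp53 pair. Bbc3, Fas and Pmaip1 lay above control in tumour-derived Pik3ca/Trp53 and below it in the other 4 cultures, Pmaip1 by only 1.07-fold above. The Fas difference of Pik3ca/Trp53 from control, -0.13 on the log2 scale, was 0.07 with scaling by the median. Bbc3 ranged from 2.11-fold lower in Trp53 loss to 2.38-fold higher in tumour-derived Pik3ca/Trp53, and Fas from 4.58-fold lower in tumour-derived Apc/Trp53 to 5.22-fold higher in tumour-derived Pik3ca/Trp53.

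**Figure D3:**
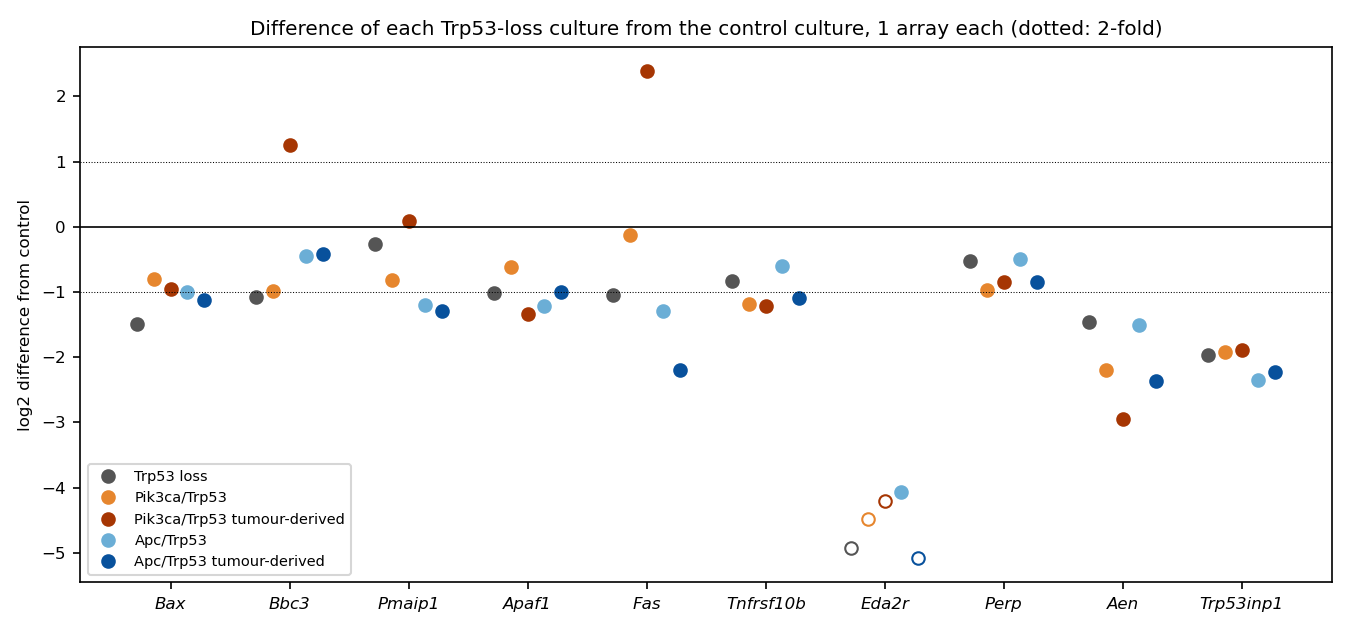
Log2 difference from the control array (vertical axis) of each member (horizontal axis) in the 5 cultures labelled as having lost Trp53, 1 array each. Open points mark genes with no probe above background in the mutant culture, and dotted lines mark 2-fold. Aen, Trp53inp1 and Eda2r lie below the lower dotted line in all 5 cultures, and Fas and Bbc3 of tumour-derived Pik3ca/Trp53 lie above the upper one.

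A limma fit set the 3 Trp53-loss cultures before inoculation against the control array, with the spread taken between those 3 cultures, which differ in genotype, and the lone control assumed to vary like them. With Benjamini-Hochberg adjustment over 15025 genes, limma called 0 genes (0.0% in each direction) and 0 of 10 members, while 1263 genes (8.41%) and 5 members had an unadjusted p under 0.05. All 10 fitted differences lay below 0. The difference was -4.49 ± 0.42 (SE) for Eda2r, with a limma adjusted p of 0.189. It was -2.08 ± 0.29 for Trp53inp1 (limma adjusted p = 0.219) and -1.72 ± 0.40 for Aen (limma adjusted p = 0.412). For the other 7 members the limma adjusted p ran from 0.575 for Bax to 0.747 for Fas. The Eda2r values in this fit rest on signals not above background in the mutant cultures except in Apc/Trp53.

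The comparisons of the double mutants with Trp53 loss ask how these genes differ with Pik3caH1047R or Apc580D beside the labelled Trp53 loss. Both share the Trp53 loss array with each other and with the first comparison. In Pik3ca/Trp53, 0 of 9 measured members were at least 2-fold lower or higher than in Trp53 loss, while 8.01% of all genes were lower and 9.72% higher. The median was 0.04, beside 0.05 for all genes. Fas was 1.89-fold higher, Bax 1.61-fold higher, Aen 1.65-fold lower and Pmaip1 1.47-fold lower. These 4 differences ran in both directions, and those of Fas and Pmaip1 rest on 1 probe each.

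In Apc/Trp53, 1 of 10 members was at least 2-fold higher than in Trp53 loss and 0 lower, where 5.36% of all genes were higher and 5.26% lower. That member was Eda2r, whose probe A_52_P354844 was above background in Apc/Trp53 alone of the 2 arrays. With the dim signal of Trp53 loss raised to its background limit the difference was -0.079, so no fold can be given. Pmaip1 was 1.91-fold lower and Bbc3 1.55-fold higher. The median was -0.01, beside 0.02 for all genes. Of the other p53 targets of arrest, feedback and repair, 4 of 25 were at least 2-fold lower and 5 higher in Pik3ca/Trp53, and 0 of 24 lower and 1 higher in Apc/Trp53.

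The comparison of each tumour-derived culture with its source asks what differs in organoids after growth under the skin. In tumour-derived Pik3ca/Trp53, 2 of 9 measured members were at least 2-fold higher than in the source and 0 lower, where 14.1% of all genes were higher and 11.3% lower. Fas was 5.72-fold higher, from -1.84 to 0.67. Bbc3 was 4.69-fold higher, from -0.10 to 2.13. Pmaip1 was 1.88-fold higher, and the other 6 ran from 1.68-fold lower (Aen) to 1.09-fold higher (Perp). Among them Apaf1 was 1.23-fold lower for the probe above background on both arrays and at least 1.74-fold lower for the probe that was dim in the tumour-derived culture. With the dim second Fas probe averaged in, the Fas difference was 0.78 on the log2 scale in place of 2.52. The median over members was 0.03, beside -0.09 for all genes.

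In tumour-derived Apc/Trp53, 1 of 10 members was at least 2-fold lower than in its source and 0 higher, where 8.04% of all genes were lower and 11.3% higher. That member was again Eda2r, above background in the source alone, with a bound of at least 1.03-fold. Fas was 1.88-fold lower, from -3.00 to -3.91, and Aen 1.81-fold lower, from 1.74 to 0.89. Bbc3 was 1.02-fold higher and Pmaip1 1.07-fold lower. The median was -0.24, or -0.11 with the dim Eda2r signal at its limit, beside -0.03 for all genes. The count of members 2-fold lower was 3 with scaling by the median (Eda2r, Fas and Aen), where 13.9% of all genes were lower. The median was then -0.58, beside -0.37 for all genes. The count was 2 with quantile normalization (9.44% of all genes) and 0 with normexp (3.66%). It was also 0 with dim probes kept (5.84%), with probes above background on both arrays (6.01%) and with dim signals at the limit (6.39%).

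Fas thus stood higher in 1 tumour-derived culture and lower in the other, and Aen stood lower in both. The difference between the 2 genotypes was not tested, since each has 1 array before and 1 after. A limma fit over both pairs, blocked by genotype and left with 1 residual degree of freedom, called 0 of 15679 genes (0.0% in each direction) and 0 of 10 members, while 496 genes and 0 members had an unadjusted p under 0.05. In it the difference was -0.80 ± 0.30 (SE) for Aen, 0.81 ± 1.11 for Fas and 1.13 ± 0.74 for Bbc3, each with a limma adjusted p of 0.980. The errors of Fas and Bbc3 are large because the 2 pairs differ in direction or size for these genes.

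**Figure D4:**
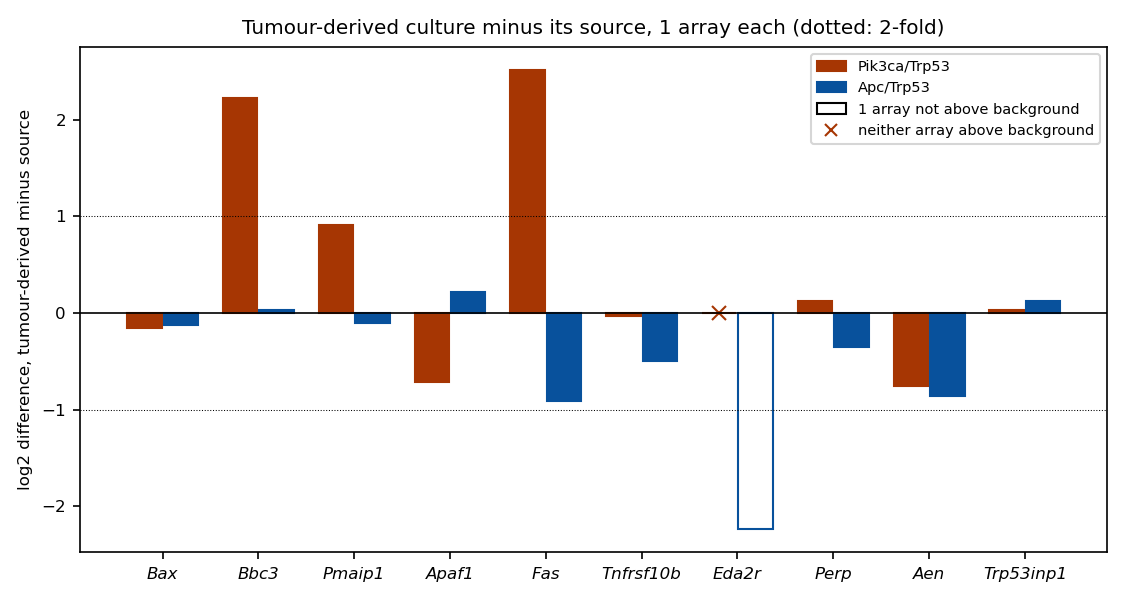
Log2 difference between each tumour-derived culture and its source (vertical axis) for the 10 members (horizontal axis), Pik3ca/Trp53 in brown and Apc/Trp53 in blue, 1 array each. The open bar rests on 1 array not above background, the cross marks a gene measured on neither array, and dotted lines mark 2-fold. Fas (2.52) and Bbc3 (2.23) of Pik3ca/Trp53 pass the upper line, and Fas of Apc/Trp53 is at -0.91.

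Other values moved with Fas and Bbc3 in tumour-derived Pik3ca/Trp53. The Trp53 probe was above background there at -1.62, against -5.02 in the source. Of the p53 family, Trp63 was at -0.03 against -2.63, at least 2.79-fold higher over its probes, and Trp73 was 2.19-fold higher. Phlda3 was 6.92-fold higher, Sfn, which encodes 14-3-3 sigma, 3.98-fold higher, and Cdkn1a at least 1.65-fold higher. Mdm2 was at -0.52 against -0.49, and Bax and Perp were within 1.11-fold of the source. The probes of Trp53inp1 ran opposite ways, 1.34-fold higher and 1.29-fold lower, as did those of Tnfrsf10b, 1.20-fold higher and 1.24-fold lower. Of 26 measured p53 targets of arrest, feedback and repair, 4 were at least 2-fold higher and 3 lower, with a median of -0.16. The part of the Trp53 signal and of Trp63 in the Fas and Bbc3 values was not tested.

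Among the genes that oppose or assist the members, Bcl2, which encodes the founding anti-apoptotic protein of its family, was 7.82-fold higher in tumour-derived Pik3ca/Trp53 than in its source and Bcl2l1 (BCL-XL) 2.06-fold higher. Bcl2l11 (BIM) was 2.16-fold higher. Tnfrsf21 and Tnfrsf25, further receptors of the family, were 2.67-fold and 2.65-fold higher, Tnfsf10, which encodes TRAIL, was 2.43-fold lower, and Eda 3.70-fold lower. Pkp1, a desmosome partner of PERP, was 7.0-fold higher. In tumour-derived Apc/Trp53, Tnfrsf25 (3.70-fold) and Tnfsf10 (3.03-fold) were higher and Pkp1 2.69-fold lower. Tnfsf10 and Pkp1 thus stood on opposite sides in the 2 pairs, a difference that was not tested.

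Fibroblast markers also differed. In tumour-derived Pik3ca/Trp53, 5 of 10 were above background (Postn, Col1a1, Col1a2, Pdgfra and Fbn1) with a summed signal of 6.04 times the 75th percentile signal, most of it from Postn at a level of 2.27, while Col3a1, Dcn, Lum and Thy1 were not well above background on any array. In its source 1 was above background, with a sum of 0.133, and in tumour-derived Apc/Trp53 2 were, with a sum of 0.274. On the other 3 arrays none was, and sums were 0.066 to 0.108. Leukocyte markers above background numbered 4 of 10 in tumour-derived Pik3ca/Trp53 and 5 on each other array. Their summed signal was 12.8 there, 8.30 in the source and 5.58 to 22.1 on the other 4 arrays. Of 5 measured between the tumour-derived culture and its source, 1 was 2-fold lower and 0 higher, with a median of 0.58, and Ptprc, the pan-leukocyte gene, was above background on neither array.

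Markers of further cell types differed between tumour-derived Pik3ca/Trp53 and its source as well. Of 4 measured endothelial markers 2 were at least 2-fold lower (median -1.37), with a summed signal of 2.62 against 12.4. Of 6 measured multiciliated markers 4 were higher and 0 lower (median 1.42), with sums of 3.32 and 2.45. Of 6 measured markers of the secretory epithelium of the oviduct 3 were lower and 1 higher (median -1.31), while their sums were 48.8 and 44.4. The part of fibroblasts, of other host cells or of these epithelial cell types in the values of Fas and Bbc3 was not tested.

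For each member whose level spanned at least 1 log2 unit, other than Eda2r and Apaf1, whose spans rest on signals not above background, the 3 genes with the most similar profile were sought among 12556 genes above background on all 6 arrays, by the root mean square difference between mean-centred log2 levels over the 6 arrays. For Trp53inp1 these were Pde6g (0.21 log2 units), Tmem43 (0.21) and the p53 target Mdm2 (0.25). Bax lay nearest to Paqr8 (0.13), Azin2 (0.16) and Rap2b (0.17), Aen to Bcas1 (0.26), Cd55 (0.28) and Cd55b (0.29), and Tnfrsf10b to Limk2 (0.11), Lmcd1 (0.11) and the member Perp (0.12). Those near Fas were Myl7 (0.27), Smpd3 (0.29) and Rflnb (0.35), and those near Bbc3 were Cd99 (0.22), Meis3 (0.23) and Peg13 (0.24). Pmaip1 lay nearest to Cx3cl1 (0.07), Btg1 (0.11) and Pold4 (0.11). How near the closest profile of other genes lies was not computed. With 12556 genes searched over only 6 arrays, these names are a description of the 6 arrays.

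The authors' deposited value table held 2 member probes, both of Eda2r. In the authors' deposited table the log2 difference of Trp53 loss from control was -3.44 for probe A_52_P207163 and -6.36 for probe A_52_P354844. The scanner signals gave -3.46 and -6.38 after scaling, with the Trp53 loss signal not well above background.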

How the data were processed

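RNA of 6 organoid cultures was labelled with Cy3 and hybridised to 6 Agilent arrays. The authors deposited scanner files with background-subtracted intensity per spot, which the submitters' processing notes credit to Agilent Feature Extraction (version 11.0.1.1), with no scaling between arrays. They also deposited log2 values of 2047 probes in a separate table, without saying how those were centred or chosen. Its column medians were 0.03 for control, -0.02 for Trp53 loss, 0.15 and -0.05 for the Pik3ca/Trp53 pair and -0.32 and -0.20 for the Apc/Trp53 pair. The file headers name mm9 as the design's build, so no coordinates were taken from it.

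Control and outlier spots were left out, each array's 75th percentile of log2 intensity over gene spots was subtracted, and spots of a probe were averaged. Of 56605 probes, 34566 could be named through RefSeq, for 23787 genes. A gene's difference is the mean over its probes that passed background on either array. The count threshold was a log2 difference of 1. "At least" folds put a dim signal at the lowest level that its array measured above background. A dim signal already above that level was left as measured, so these folds are not strict bounds. Each is a mean over the gene's probes unless a probe is named. Counts use signals as measured.

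The members, lists and tests were chosen with earlier results of these data known. Of each other list, the text names up to 4 genes per comparison at least 2-fold apart and above background on both arrays, the largest first, and genes that bear on a result. The scripts for both limma fits were tested on simulated data with an equal spread for all genes and arrays. That test checks the code only, since the cultures in the fits differ in genotype. Tools were limma 3.58.1 and data.table (version 1.17.8) in R 4.3.3, and pandas 2.3.3, numpy 2.4.6 and matplotlib 3.10.9 in Python 3.11.15. Alternatives changed the scaling, the background correction, the treatment of dim probes, the choice of probe, the samples in the fits and the block.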

Additional observations from a re-analysis of the deposited data

Results flagged for a closer look

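Fas stood on opposite sides of its source in the 2 tumour-derived cultures, with a log2 difference of 2.52 in Pik3ca/Trp53 and of -0.91 in Apc/Trp53. Each value compares 1 array with 1 array, so the difference between the genotypes was not tested, and both rest on the same single probe. The Apc/Trp53 value fell short of 2-fold and moved with the processing. It was -0.43 with normexp, -0.12 with dim probes kept, -1.18 with quantile normalization and -1.25 with scaling by the median. The Pik3ca/Trp53 value was 1.96 with normexp and 0.78 with dim probes kept. In tumour-derived Apc/Trp53 the Fas level was -3.91, where the lowest level above background was -4.69.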

How the results depend on the processing

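With 1 array per group, the alternatives show how values move and not how replicates vary. Scaling by the median shifted the median of all genes to 0.23 in Trp53 loss minus control, to 0.28 and 0.32 in Pik3ca/Trp53 and Apc/Trp53 minus control, to -0.37 in the Apc pair and to -0.18 in the Pik3ca pair. Under it 4 members were 2-fold lower in Trp53 loss (median -0.89, with 5.87% of all genes lower). In tumour-derived Apc/Trp53 against its source 3 were (median -0.58, with 13.9% of all genes). In Apc/Trp53 against control 4 were (median -0.95, with 7.35% of all genes). The median of Pik3ca/Trp53 minus control was -0.78. Quantile normalization made 2 members 2-fold lower in the Apc pair (9.44% of all genes). The files used here gave median spot signals, so normexp was run on those with the median background and an offset of 50. The offset is added to every signal, which makes the log2 differences of dim probes smaller. Against control, normexp left 4 members 2-fold lower in Trp53 loss (median -0.79, with 2.59% of all genes lower). It left 4 in Apc/Trp53 (median -0.78, 4.31%) and 3 in tumour-derived Pik3ca/Trp53 (median -0.83, 5.76%). The median was -1.05 for tumour-derived Apc/Trp53.

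The Eda2r calls in Apc/Trp53 minus Trp53 loss and in the Apc pair fell to 0 members under normexp, with dim probes kept, with probes above background on both arrays and with dim signals raised, where the first difference was -0.079. Under these alternatives 1.67% to 4.11% of all genes were 2-fold higher in the first comparison, and 3.66% to 6.39% were 2-fold lower in the Apc pair. Keeping dim probes left 1 member 2-fold higher in the Pik3ca pair (9.27% of all genes), since the dim second Fas probe entered its mean. Probes above background on both arrays left 3 of 9 measured members lower in tumour-derived Pik3ca/Trp53 against control (median -0.85, with 9.64% of all genes lower). With the brightest probe alone, medians were -0.32 in Pik3ca/Trp53 minus Trp53 loss, 0.26 in the Pik3ca pair and -0.39 in the Apc pair. In the paired fit Trp53inp1 turned to -0.14 under median scaling and -0.0048 under normexp. With the 75th percentile taken after averaging copies, an alternative chosen after seeing the data, 6 members were 2-fold lower in Trp53 loss (7.16% of all genes), since Apaf1 stood at the margin. Apaf1 also fell short of 2-fold there with dim signals raised to the limit, at -0.98. It was at -0.26 with probes above background on both arrays, and with the brightest probe alone.

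Neither fit called a member under any alternative run, without any 1 of the 3 cultures or without the genotype block included. Under quantile normalization the fit against control called 76 genes, none of them a member. Of 903 values per gene and alternative, 879 kept their sign and 24 changed it. Of the 24, 1 was of Eda2r, and the other 23 had reported differences of at most 0.40 in size, in Apaf1, Trp53inp1, Fas, Tnfrsf10b, Bbc3 and Aen.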
